A study of Mus musculus with 5 samples.

Results

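The heat shock chaperones described here are 10 genes, Hspb1, Hspb8, Hspa1a, Hspa1b, Hspa8, Hsph1, Hsp90aa1, Dnajb1, Hspd1 and Hspe1. They were found by gene symbol in a table of total RNA sequencing counts, in which they are 10 of 25655 symbols. The table covers injured whole retinas of wildtype C57BL/6 mice, taken 7 days after optic nerve crush (ONC), an injury to the axons of retinal ganglion cells. There were 3 retinas from mice given the vehicle DMSO (replicates 1, 2 and 3) and 2 from mice given Sorbinil at 10 mg/kg (replicates 1 and 3). Sorbinil inhibits aldose reductase, the enzyme that turns glucose into sorbitol. Mice of both sexes, 8 to 10 weeks old, were used in the study, and Sorbinil or DMSO was injected into the peritoneum before the crush and then daily. The comparison therefore asks whether chaperone expression in the crushed retina differed with the inhibitor. All 5 retinas were injured, so a response to the crush itself cannot be read from these counts. The count table holds no values for a Sorbinil replicate 2. The study excluded 1 Sorbinil replicate, whose number it does not give, because of a principal component analysis. The study's legend counts as many mice as retinas in each group.

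Heat shock proteins are chaperones, which hold unfolded proteins in solution or refold them at the cost of ATP. HSP70 proteins bind exposed stretches of a client, J-domain proteins of the HSP40 family bring clients to them and start their ATP hydrolysis, and HSP110 proteins exchange the nucleotide. HSP90 finishes signaling proteins such as kinases and hormone receptors, small heat shock proteins hold clients without ATP, and HSP60 with HSP10 folds proteins inside mitochondria. The transcription factor HSF1 drives the inducible members in stressed cells by binding heat shock elements, arrays of the motif nGAAn in alternating directions. In the retina, small heat shock proteins are made by glia and by ganglion cells after injury, and photoreceptors carry a heavy load of protein folding.

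Total counts ran from 56096541 to 90288552 per retina, and the members took 0.323% to 0.331% of them in DMSO retinas and 0.287% and 0.316% in Sorbinil replicates 1 and 3. After TMM scaling the order turned for Sorbinil replicate 1, with summed member levels of 3049 to 3256 CPM (counts on a common library size, scaled by the TMM method) in DMSO retinas, 3367 CPM in Sorbinil replicate 1 and 2960 CPM in replicate 3. All 10 members were among the 14992 genes that passed a filter on low counts. Sorbinil replicate 1 stood apart from the other retinas, with 2668 genes at least 2-fold below the DMSO mean, against 146 in Sorbinil replicate 3 and 39 to 85 in the DMSO retinas. The median of 10 rod markers was 0.54 above the DMSO mean on the log2 scale in Sorbinil replicate 1, against -0.375 to 0.13 in the other retinas. Summed levels of 10 Müller glia markers were 2744 CPM in Sorbinil replicate 1 against 6986 to 8470 CPM in the others, those of ganglion cells 114 against 244 to 342 CPM, those of microglia 109 against 162 to 243 CPM, and those of vessels 182 against 358 to 550 CPM. None of these markers was at 0 in any retina. In a whole retina, fewer cells of a type and less RNA per cell cannot be told apart. Each result is therefore also given for Sorbinil replicates 1 and 3 apart. A fit without Sorbinil replicate 1 has a single Sorbinil retina, which is assumed to vary like the DMSO retinas, so its p-values rest on the DMSO spread alone. Mitochondrially encoded genes took 1.94% to 2.66% of the counts in DMSO retinas and 3.70% and 4.05% in Sorbinil retinas, higher in both.

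Promoter sequence is shown first, because heat shock elements are what heat shock factors bind. Within 250 bases before to 50 bases after the start of the canonical transcript (GENCODE vM39 on GRCm39), 7 of the 10 members hold an inverted pair of the heat shock unit, GAANNTTC or TTCNNGAA, against 14.3% of 21729 protein-coding promoters of the same length. Both motifs read alike on either strand. GAANNTTC was in 6 of the members and in 7.42% of all promoters, and TTCNNGAA was in 3 of the members and in 8% of all. The longer array in which GAANNTTC and TTCNNGAA share their TTC, searched on both strands and so overlapping the other motifs, was in Hspd1 and Hspe1 and in 0.479% of all promoters. Stretches that end at the base before the transcript start follow, 5′ to 3′ on the strand of the gene, with the motifs in capitals.
Hspb1, small heat shock protein, chr5:135916610-135916759, plus strand: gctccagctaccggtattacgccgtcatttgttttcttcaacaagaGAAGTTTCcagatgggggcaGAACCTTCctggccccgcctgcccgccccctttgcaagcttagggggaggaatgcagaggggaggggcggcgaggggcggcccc
Hspa1a, inducible HSP70, chr17:35191133-35191282, minus strand: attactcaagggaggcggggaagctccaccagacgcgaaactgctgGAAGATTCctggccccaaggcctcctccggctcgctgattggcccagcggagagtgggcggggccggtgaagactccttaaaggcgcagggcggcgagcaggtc
Hspa1b, inducible HSP70, chr17:35178215-35178364, minus strand: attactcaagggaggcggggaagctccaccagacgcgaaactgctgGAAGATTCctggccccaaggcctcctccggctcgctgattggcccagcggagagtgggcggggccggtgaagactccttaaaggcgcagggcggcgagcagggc
Hsph1, HSP110, chr5:149559807-149559956, minus strand: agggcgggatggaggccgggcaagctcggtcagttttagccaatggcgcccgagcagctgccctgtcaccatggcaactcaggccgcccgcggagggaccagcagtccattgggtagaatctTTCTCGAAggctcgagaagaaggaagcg
Between the starts of Hspd1 and Hspe1, chr1:55127184-55127290, plus strand: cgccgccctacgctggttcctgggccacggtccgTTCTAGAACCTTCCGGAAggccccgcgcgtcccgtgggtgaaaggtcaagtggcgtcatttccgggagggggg

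In Hspb1 the motif occurs at positions -104 to -97 and -84 to -77 from the start. Hspa1a and Hspa1b hold it at -104 to -97 in both genes, followed by the letters CCAAT on the other strand at -67 to -63. Their promoters differ at 4 of 300 bases. Hspd1 and Hspe1, which encode the paired mitochondrial chaperonins, have 107 bases between their starts on opposite strands, and the same array lies at -52 to -35 from the Hspd1 start and -73 to -56 from the Hspe1 start. Dnajb1 holds GAANNTTC at 29 to 36, after its start. The letters were not found in these windows of Hspb8, Hspa8 and Hsp90aa1. The letters TATAAA were in 0 of the 10 windows and in 13.2% of all promoters, while CCAAT was in 6 of the 10 and in 39.9%.

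Expression of the heat shock chaperones was close to that of the DMSO retinas for most members, and no member passed the test. The study's threshold for a call was a p-value of 0.1 or less, unadjusted, together with a difference of 2-fold or more. By edgeR's quasi-likelihood test 0 of the 10 members were called, where 1.71% of the 14992 genes tested were. At an unadjusted p under 0.05 there were 0 members, against 5.01% of all genes, and the smallest unadjusted p was 0.13, for Hspa8. At an adjusted p under 0.05 there were 0 members and 0% of all genes. The DESeq2 Wald test gave 1 member an unadjusted p under 0.05, Hspa8 at 0.0438, where 6.37% of all genes had one, and 0 members an adjusted p under 0.05. The log2 fold changes of Sorbinil over DMSO ran from -0.755 for Hspb1 to 0.23 for Hsp90aa1, with a median of -0.067 against -0.008 over all genes, and 6 of 10 were below 0. The 95% interval of the log2 fold change lay inside 2-fold in both directions for 8 of 10 members, all but Hspb1 and Hspb8, as it did for 62.6% of all genes.

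**Figure D1:**
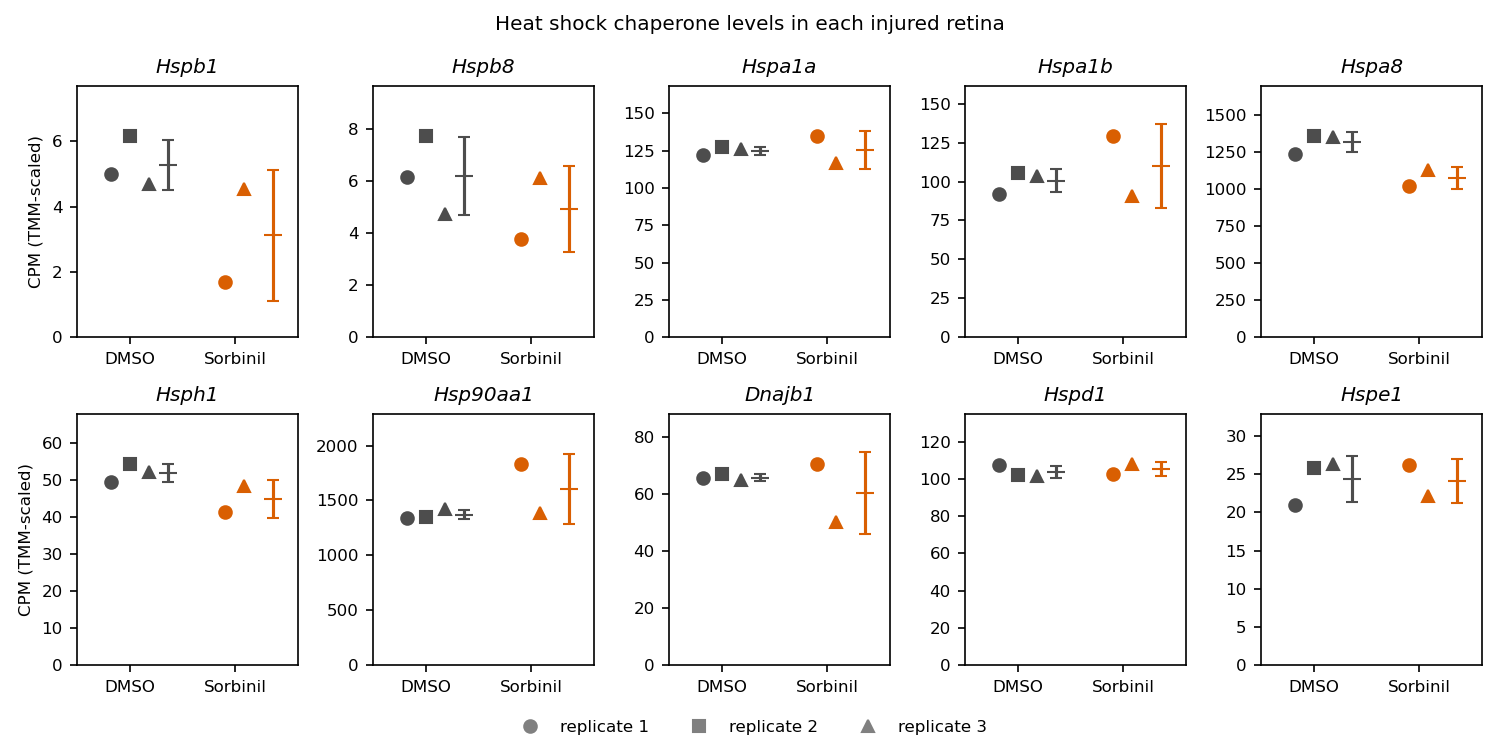
Level of each heat shock chaperone (y axis, CPM on TMM-scaled libraries, starting at 0) in the 3 DMSO retinas (grey) and the 2 Sorbinil retinas (orange), with symbols for the replicate number and bars for the mean ± SD. Only Hspb1, Hspa8 and Hsph1 have both Sorbinil retinas below every DMSO retina, and Hspb1 in Sorbinil replicate 1 is the lowest point relative to its DMSO mean.

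Of the small heat shock proteins, Hspb1 (HSP27, which also binds actin, ENSMUSG00000004951, chr5:135916760-135918417) had the lowest ratio of the 10. Hspb1 was at 4.995, 6.16 and 4.68 CPM in DMSO replicates 1, 2 and 3 and at 1.69 and 4.54 CPM in Sorbinil replicates 1 and 3. The counts behind these values were 260 to 492 in DMSO retinas and 89 and 308 in Sorbinil retinas. By library size alone, Hspb1 in Sorbinil replicate 3 lay among the DMSO retinas. After TMM scaling both Sorbinil retinas lay below all DMSO retinas, but replicate 3 by only a small margin (0.21 below the DMSO mean on the log2 scale), while replicate 1 was 1.62 below. The mean was 5.28 ± 0.78 CPM in DMSO retinas (SD, n = 3) and 3.12 ± 2.01 CPM in Sorbinil retinas (SD, n = 2). This was a log2 fold change of -0.755 ± 0.44 (SE, 95% interval -1.83 to 0.32, edgeR's quasi-likelihood test, unadjusted p 0.136 and adjusted p = 0.758). Without Sorbinil replicate 1 the value for Hspb1 was -0.21 (edgeR, unadjusted p 0.373 and adjusted p = 0.824).

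Hspb8 (HSP22, a partner of BAG3 in clearing misfolded proteins, ENSMUSG00000041548, chr5:116546409-116561084) was at 6.16, 7.73 and 4.73 CPM in DMSO retinas and at 3.77 and 6.11 CPM in Sorbinil retinas. Sorbinil replicate 1 was below every DMSO retina and replicate 3 lay among them. Hspb8 also varied most between DMSO retinas, with a coefficient of variation of 24.1%, against 14.7% for Hspb1 and 1.76% for Dnajb1, the steadiest member. The log2 fold change was -0.33 ± 0.32 (SE, 95% interval -1.11 to 0.45, edgeR's quasi-likelihood test, adjusted p = 0.762), and -0.015 without Sorbinil replicate 1. The low Hspb1 and Hspb8 of Sorbinil replicate 1 came in the retina with low Müller glia, ganglion cell, microglia and vessel markers, whose part in these values was not tested.

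Hspa1a and Hspa1b, the heat-inducible HSP70 pair on chromosome 17 (ENSMUSG00000091971, chr17:35188166-35191132, and ENSMUSG00000090877, chr17:35175412-35178214), are near-identical copies. Of the 75-base windows of the Hspa1a transcript, 52.7% also occur in Hspa1b, and how reads that fit both genes were counted is not given in the sources used here, so the split between them is uncertain. Hspa1a was at 122, 127 and 126 CPM in DMSO retinas and at 135 and 117 CPM in Sorbinil retinas. Hspa1b was at 92.1, 106 and 104 CPM in DMSO retinas and at 129 and 90.9 CPM in Sorbinil retinas. After TMM scaling, for both genes Sorbinil replicate 1 was above and replicate 3 below all DMSO retinas. By library size alone, Hspa1a in Sorbinil replicate 1 was instead below them. The log2 fold change of Hspa1a was 0.007 ± 0.12 (SE, 95% interval -0.29 to 0.31, edgeR's quasi-likelihood test, adjusted p = 0.986). That of Hspa1b was 0.13 ± 0.18 (SE, 95% interval -0.32 to 0.58, edgeR, adjusted p = 0.811). Without Sorbinil replicate 1 both signs turned, to -0.089 for Hspa1a and -0.13 for Hspa1b. With the counts of the pair summed, the levels were 214, 233 and 230 CPM against 264 and 208 CPM, and the log2 fold change was 0.063 ± 0.15 (SE, 95% interval -0.31 to 0.435, edgeR, adjusted p = 0.889).

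Hspa8 (HSC70, the constitutive HSP70, which also uncoats clathrin vesicles, ENSMUSG00000015656, chr9:40711630-40731039) was at 1237, 1357 and 1354 CPM in DMSO retinas and at 1024 and 1130 CPM in Sorbinil retinas. Both Sorbinil retinas lay below all DMSO retinas, and the ratio of the means was 0.82. The mean was 1316 ± 68.5 CPM in DMSO retinas (SD, n = 3) and 1077 ± 74.99 CPM in Sorbinil retinas (SD, n = 2). This was a log2 fold change of -0.29 ± 0.16 (SE, 95% interval -0.69 to 0.12, edgeR's quasi-likelihood test, unadjusted p 0.13 and adjusted p = 0.758). The log2 difference of Hspa8 from the DMSO mean was -0.36 in Sorbinil replicate 1 and -0.22 in replicate 3. For Hspb1 these differences were -1.62 and -0.21, so the genes differed mainly in replicate 1. The snoRNA genes Snord14c, Snord14d and Snord14e and a lncRNA on the opposite strand overlap Hspa8, and reads from them were not told apart.

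Hsph1 (HSP105, the nucleotide exchange partner of HSP70, ENSMUSG00000029657, chr5:149537636-149560156) followed the same order. Hsph1 was at 49.6, 54.4 and 52.1 CPM in DMSO retinas and at 41.3 and 48.5 CPM in Sorbinil retinas, with every Sorbinil value below every DMSO value. The log2 fold change was -0.21 ± 0.12 (SE, 95% interval -0.52 to 0.095, edgeR's quasi-likelihood test, unadjusted p 0.14 and adjusted p = 0.758), and -0.091 without Sorbinil replicate 1. After TMM scaling, Hspb1, Hspa8 and Hsph1 were thus the 3 of 10 members with both Sorbinil retinas below all DMSO retinas, where 10.5% of all genes tested were. On that scale 0 members had both above, where 12.8% were. These sets depend on the scaling. By library size alone, Hspb1 and Hsph1 in Sorbinil replicate 3 lay among the DMSO retinas, while Hspa8 stayed below in both Sorbinil retinas. Dnajb1 was then also below in both, and Hsp90aa1 was above every DMSO retina in both. For Hspb1, Hspa8 and Hsph1 the exact permutation test over the 10 groupings of 5 retinas, on TMM-scaled levels, gave its smallest possible p of 0.1 (two-sided). Without Sorbinil replicate 1 the log2 fold change of Hspa8 was -0.21. The share of mitochondrially encoded counts was above all DMSO retinas in the same 2 Sorbinil retinas, and its part in these differences was not tested.

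**Figure D2:**
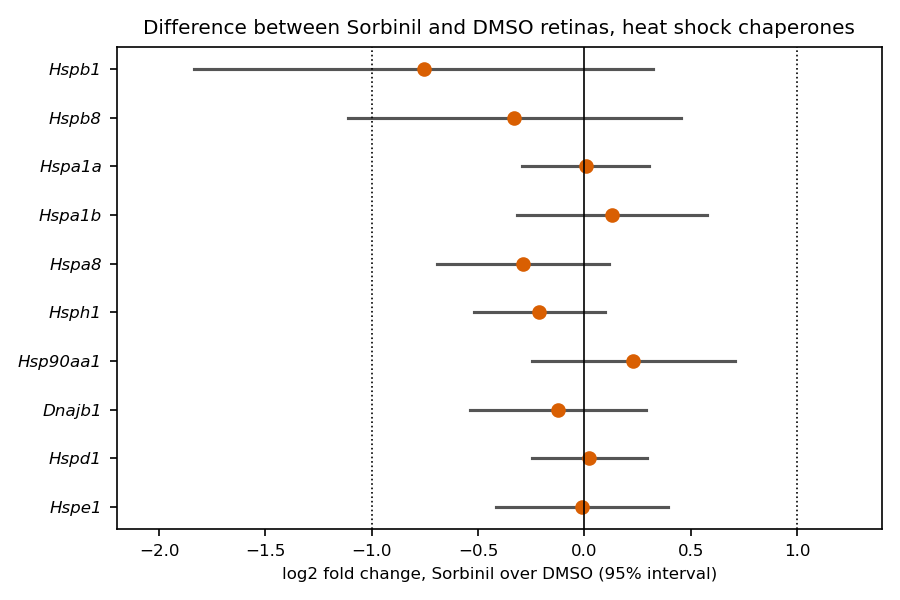
Fitted log2 fold change of Sorbinil over DMSO (x axis) for each heat shock chaperone (y axis), with the 95% interval from edgeR's quasi-likelihood fit, and dotted lines at a 2-fold difference. Every interval crosses 0, and those of Hspb1 and Hspb8 reach past the lower 2-fold line.

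Hsp90aa1 (HSP90α, the inducible cytosolic HSP90, ENSMUSG00000021270, chr12:110656842-110669166) had the highest log2 fold change of the 10. Hsp90aa1 was at 1343, 1348 and 1418 CPM in DMSO retinas and at 1833 and 1382 CPM in Sorbinil retinas. By library size alone, both Sorbinil retinas lay above every DMSO retina. After TMM scaling, Sorbinil replicate 1 was 0.42 above the DMSO mean on the log2 scale, while replicate 3 lay among the DMSO retinas. The log2 fold change was 0.23 ± 0.19 (SE, 95% interval -0.25 to 0.71, edgeR's quasi-likelihood test, unadjusted p 0.28 and adjusted p = 0.758), and 0.024 without Sorbinil replicate 1. The ratio of Hsp90aa1 to Hsp90ab1, the constitutive HSP90, in CPM was 3.56, 3.65 and 4.45 in DMSO retinas, 8.69 in Sorbinil replicate 1 and 3.79 in replicate 3. The 8.69 combines a higher Hsp90aa1 with a lower Hsp90ab1, which was at 211 CPM in that retina and at 319 to 378 CPM in the others.

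Dnajb1 (HSP40, the J-domain partner of inducible HSP70, ENSMUSG00000005483, chr8:84334811-84339820) was at 65.4, 67.0 and 64.7 CPM in DMSO retinas and at 70.5 and 50.2 CPM in Sorbinil retinas. After TMM scaling the Sorbinil retinas thus stood on opposite sides of the DMSO retinas. By library size alone both lay below every DMSO retina, with a log2 fold change of -0.25 (edgeR, adjusted p = 0.798). With TMM scaling the log2 fold change was -0.12 ± 0.17 (SE, 95% interval -0.54 to 0.29, edgeR's quasi-likelihood test, adjusted p = 0.81). Without Sorbinil replicate 1 it was -0.38, with an unadjusted p of 0.0103 and an adjusted p of 0.589 (edgeR), in a setting where 7.89% of all genes had an unadjusted p under 0.05. The adjusted p of Dnajb1 ran from 0.425 to 1 over the alternatives (edgeR and DESeq2).

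The mitochondrial chaperonins differed little between the groups. Hspd1 (HSP60, ENSMUSG00000025980, chr1:55116989-55171038) was at 107, 102 and 102 CPM in DMSO retinas and at 103 and 108 CPM in Sorbinil retinas. Hspe1 (HSP10, its lid, ENSMUSG00000073676, chr1:55127260-55130476) was at 20.9, 25.8 and 26.4 CPM in DMSO retinas and at 26.2 and 22.1 CPM in Sorbinil retinas. The groups overlapped for both genes. The log2 fold change was 0.023 ± 0.11 for Hspd1 (SE, 95% interval -0.25 to 0.29, edgeR's quasi-likelihood test, adjusted p = 0.947) and -0.012 ± 0.16 for Hspe1 (SE, 95% interval -0.415 to 0.39, edgeR, adjusted p = 0.982). Divided by transcript length, Hspe1 stood at 0.61, 0.79 and 0.81 of Hspd1 in DMSO retinas and at 0.80 and 0.64 in Sorbinil retinas. The annotated Hspd1 locus overlaps Hspe1 on the opposite strand over 3217 bases and also holds the pseudogenes Gm16581 and Gm5147. The libraries kept strand, but whether counting used it is not given in the sources used here, so part of these counts could belong to the other gene.

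Per kilobase of canonical transcript, Hspa8 and Hsp90aa1 were far above the rest. In DMSO retinas the level was 549.7 ± 28.6 CPM per kb for Hspa8 and 388 ± 11.97 for Hsp90aa1 (SD, n = 3), and in Sorbinil retinas it was 449.9 ± 31.3 and 455 ± 90.2 (SD, n = 2). Hspa8 was the higher of the pair in 4 of 5 retinas, and in Sorbinil replicate 1 Hsp90aa1 was higher (519 against 428 CPM per kb). Together they made up between 84.5% and 85.1% of the summed CPM of the members in every retina. Below them, in DMSO means, came Hspd1 at 42.8, Hspa1a at 42.2, Hspa1b at 35.9, Hspe1 at 31.5, Dnajb1 at 18.6, Hsph1 at 8.42, Hspb1 at 5.76 and Hspb8 at 2.93 CPM per kb. Compared within each retina, neighbours kept this order in 5 of 5 retinas except Hspa8 over Hsp90aa1 and Hspa1a over Hspa1b (4 of 5 each) and Hspd1 over Hspa1a (2 of 5). Inducible Hspa1a stood at 0.075 to 0.080 of constitutive Hspa8 per kb in DMSO retinas and at 0.106 and 0.083 in Sorbinil replicates 1 and 3. With the union of all annotated exons as the length, Hsp90aa1 came before Hspa8, Hspa1a and Hspa1b before Hspd1, Dnajb1 before Hspe1 and Hspb1 before Hsph1, so these orders depend on the transcript model.

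The 2 Sorbinil retinas differed from each other for most members. In Sorbinil replicate 1, Hspa1a, Hspa1b, Hsp90aa1 and Dnajb1 were above all 3 DMSO retinas, Hspb1, Hspb8, Hspa8 and Hsph1 were below all 3, and Hspd1 and Hspe1 were among them. In Sorbinil replicate 3, 6 members were below all DMSO retinas, where 29.1% of all genes were, Hspd1 was above, and Hspb8, Hsp90aa1 and Hspe1 were among them. The members outside the DMSO range were thus 8 of 10 in replicate 1, where 85.1% of all genes were, and 7 of 10 in replicate 3, where 56.4% were. Hspa1a, Hspa1b and Dnajb1 were above the DMSO range in replicate 1 and below it in replicate 3, as 13.6% of all genes were. For Hspa1a and Dnajb1 this depends on the TMM scaling, as by library size alone both were below the DMSO range in replicate 1. Other positions given here also depend on it. By library size alone, Hspb1 and Hsph1 were among the DMSO retinas in replicate 3 and Hsp90aa1 was above them, and Hspd1 was below them in replicate 1. In size the departures after TMM scaling were small in replicate 3, between -0.39 for Dnajb1 and 0.059 for Hspd1 on the log2 scale. In replicate 1 they ran from -1.62 for Hspb1 to 0.42 for Hsp90aa1. Of the 10, Hspb1 alone was at least 2-fold below the DMSO mean in replicate 1, where 2668 of the 14992 genes tested were. In replicate 3, 0 members were, against 146 of all genes.

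**Figure D3:**
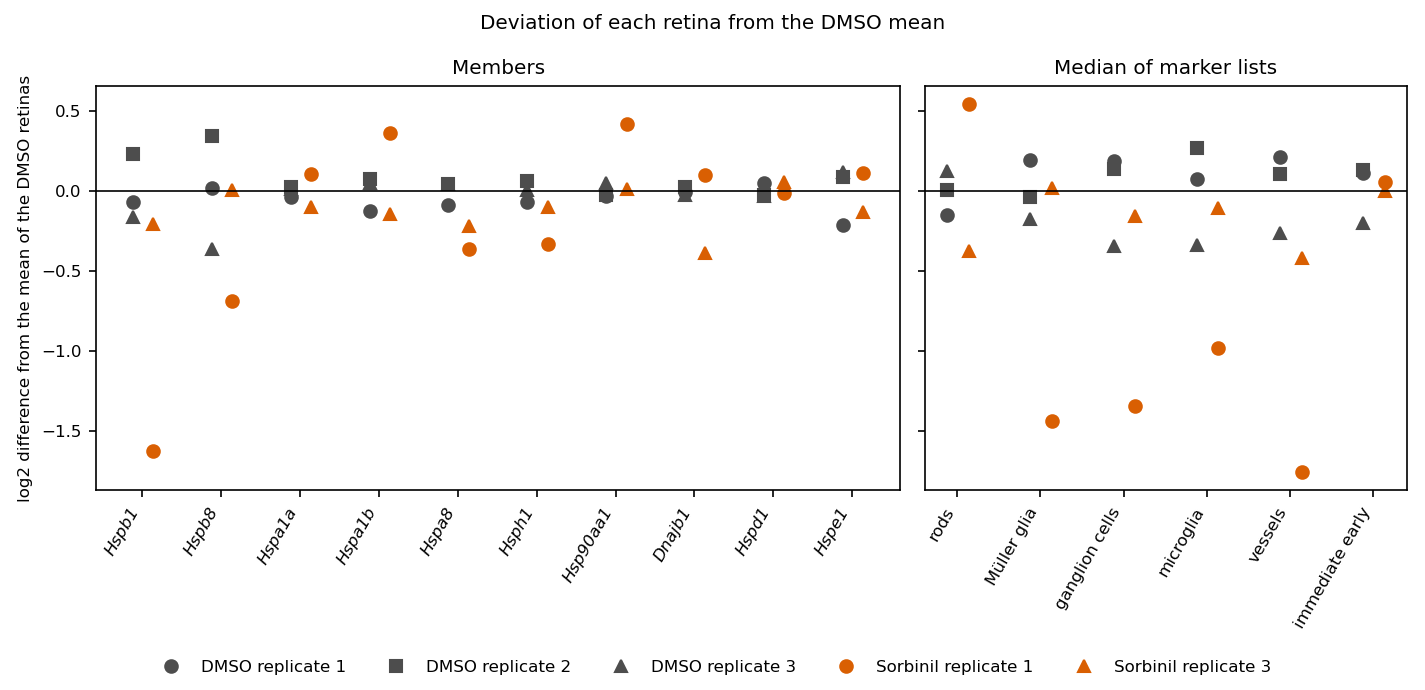
Difference of each retina from the mean of the DMSO retinas on the log2 scale (y axis), for the 10 heat shock chaperones (left) and for the median of each marker list (right), with grey for DMSO, orange for Sorbinil and symbols for the replicate number. Sorbinil replicate 1 is far below the others for Hspb1 and for the markers of Müller glia, ganglion cells, microglia and vessels, while the 5 points of Hspd1 lie close together.

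The marker lists stood apart in Sorbinil replicate 1 as well. Relative to the DMSO mean on the log2 scale, the median of the Müller glia markers was -1.44 in Sorbinil replicate 1 and 0.018 in replicate 3, that of the ganglion cell markers -1.35 and -0.15, that of the microglia markers -0.98 and -0.10, and that of the vessel markers -1.76 and -0.42. The median of the rod markers was 0.54 in replicate 1 and -0.375 in replicate 3. Rlbp1, a retinal carrier of Müller glia, was at 402 to 550 CPM in DMSO retinas and at 190 and 428 CPM in Sorbinil retinas. After TMM scaling, the retina with the highest median of rod markers was also highest in Hspa1a, Hspa1b, Hsp90aa1 and Dnajb1. The retina with the lowest was lowest in Hspa1a, Hspa1b and Dnajb1. The TMM factor was 0.854 in Sorbinil replicate 1, against 0.991 to 1.071 in the others. By library size alone, Sorbinil replicate 1 was lowest in Hspa1a and below every DMSO retina in Dnajb1. Whether cell composition had a part in these values was not tested. The summed level of 12 immediate early genes, which answer stress and handling within minutes, was 156 to 184 CPM in DMSO retinas and 194 and 173 CPM in Sorbinil retinas, and Fos was at 16.2 to 21.2 CPM against 28.2 and 17.1 CPM. In the same list Egr1 (18.9 to 29.6 against 42.7 and 35.3 CPM, edgeR, adjusted p = 0.758) and Fosb (2.32 to 2.73 against 5.33 and 3.04 CPM) had both Sorbinil retinas above every DMSO retina. These were 2 of the 12, where 12.8% of all genes had both above. The log2 fold change was below 0 for 6 of the 12, with a median of -0.037.

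Beyond the members, 81 other chaperone genes were listed by role, of which 80 were tested and Hspb7 was not, with 1 to 4 counts per retina. At the study's threshold 1 of the 80 was called lower and 0 higher by edgeR's quasi-likelihood test, where 1.71% of all genes were called in either direction, and 2 were lower and 0 higher at an unadjusted p under 0.05, with 0 at an adjusted p under 0.05. The median log2 fold change was -0.025, and the 95% interval lay inside 2-fold for 70 of the 80, as for 62.6% of all genes. Groups did not overlap for 13 that were lower and 9 that were higher with Sorbinil, against 10.5% and 12.8% of all genes. By role the median was -0.19 for 4 heat shock factor genes, -0.064 for 5 other small heat shock proteins, -0.18 for 8 other HSP70, HSP110 and HSP90 genes, 0.011 for 12 J-domain proteins, 0.024 for 17 cochaperones, 0.02 for 14 genes of the TRiC chaperonin and prefoldin, 0.057 for 10 mitochondrial chaperones and proteases, and -0.065 for 10 chaperones of the endoplasmic reticulum.

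**Figure D4:**
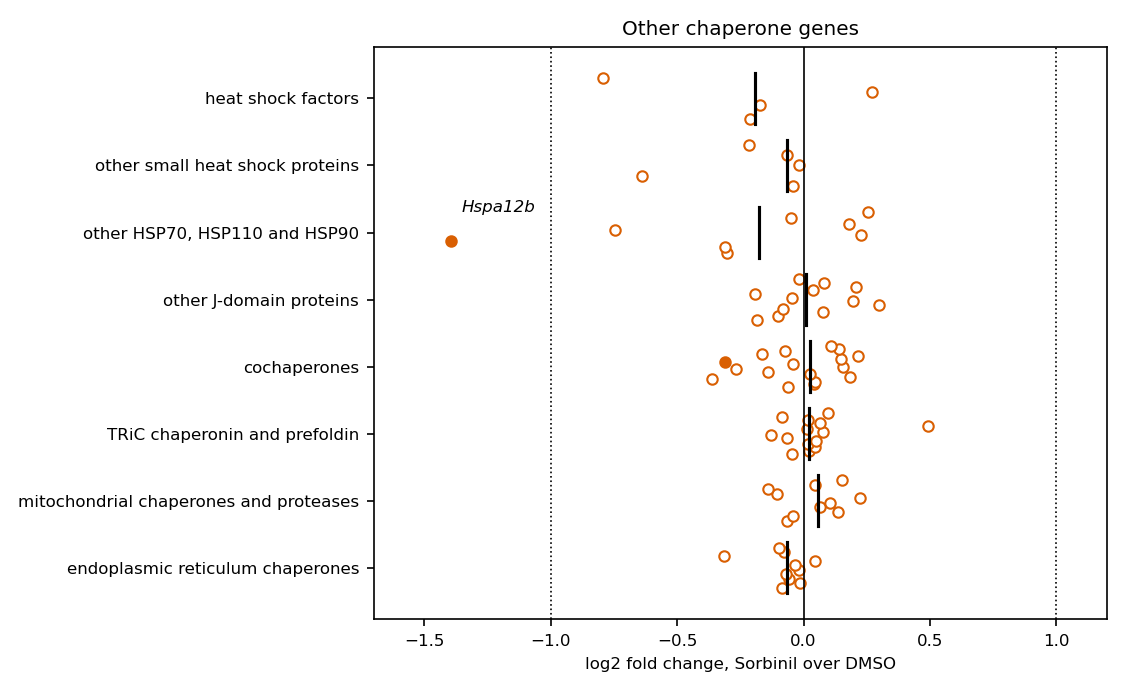
Log2 fold change of Sorbinil over DMSO (x axis) for 80 other chaperone genes in 8 roles (y axis), with a vertical bar at the median of each role, filled points for an unadjusted p under 0.05 by edgeR, and dotted lines at a 2-fold difference. Hspa12b is the 1 gene beyond a 2-fold difference.

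The called gene was Hspa12b, a distant HSP70 relative found in endothelium. Hspa12b was at 2.56, 2.24 and 2.12 CPM in DMSO retinas and at 0.40 and 1.34 CPM in Sorbinil retinas, a log2 fold change of -1.39 (95% interval -2.69 to -0.099, edgeR's quasi-likelihood test, unadjusted p 0.039 and adjusted p = 0.758). Without Sorbinil replicate 1 it was -0.775 and no longer called (edgeR, unadjusted p 0.0292 and adjusted p = 0.618). Its 5 libraries held 21 to 248 counts, and it overlaps Adissp on the opposite strand. The median of the vessel markers, though not each of them, was also lowest in Sorbinil replicate 1. Of the 10 vessel markers, 5 had both Sorbinil retinas below every DMSO retina after TMM scaling, where 10.5% of all genes did. By edgeR 3 of the 10 were called lower and 0 higher, where 1.71% of all genes were called in either direction. The part of these markers was not tested. Hspbp1, a nucleotide exchange factor of HSP70, was at 34.3, 33.7 and 35.4 CPM against 29.7 and 26.0 CPM (log2 fold change -0.31, edgeR, unadjusted p 0.0445 and adjusted p = 0.758), and shares 2809 bases of its locus with Ppp6r1.

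Among the next genes by p-value, Cdc37, which brings kinases to HSP90, was at 99.7, 89.8 and 93.8 CPM in DMSO retinas and at 77.4 and 79.7 CPM in Sorbinil retinas. Hspa5 (BiP), the HSP70 of the endoplasmic reticulum, was at 317, 339 and 413 CPM against 284 and 288 CPM. Both were lower in each Sorbinil retina than in any DMSO retina, with edgeR adjusted p = 0.758 for either. Dnajb14, a J-domain protein of the endoplasmic reticulum membrane, was at 127, 133 and 131 CPM against 173 and 148 CPM, and Hsf2, a heat shock factor, at 21.9, 21.8 and 23.9 CPM against 27.2 and 27.2 CPM. Both were higher in each Sorbinil retina than in any DMSO retina after TMM scaling, again with edgeR adjusted p = 0.758. By library size alone, Hsf2 in Sorbinil replicate 1 lay among the DMSO retinas. Hsf1, the main stress-activated heat shock factor, was at 15.5, 16.2 and 16.3 CPM against 16.4 and 12.04 CPM. In Sorbinil replicate 3 Hsf1 lay below the DMSO retinas, as 29.1% of all genes did. Cryab (αB-crystallin), a small heat shock protein, was at 35.6, 35.6 and 41.2 CPM against 13.8 and 34.3 CPM. Its log2 fold change was -0.64 (edgeR, adjusted p = 0.758), and -0.11 without Sorbinil replicate 1. Cryab thus had the pattern of Hspb1 after TMM scaling, with 1 Sorbinil retina low and the other just under the DMSO retinas. Cryab overlaps Hspb2 on the opposite strand over 1481 bases. Lens markers were high in DMSO replicate 3 and Sorbinil replicate 3, and their part in Cryab was not tested.

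The pattern of Hspa1a over the 5 retinas was compared with that of every other gene tested, as the root mean square difference of log2 CPM after each gene was centred on its mean. The closest 5 genes were Ddx39b (0.004), Dctn5 (0.012), Cdc23 (0.014), Arpc3 (0.015) and Ddx23 (0.015). Among the members, Hspe1 was closest at 0.099, at rank 2495 of 14991 genes, followed by Hspd1 at 0.10, Dnajb1 at 0.116 and Hspa1b at 0.118. Hspb8 (0.399) and Hspb1 (0.694, rank 13851) were the farthest. The near neighbours of Hspa1a are thus genes with little difference between retinas, and even its near-identical copy Hspa1b stood at rank 3528. These distances rest on 5 points that share their libraries and are a description only.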

How the data were processed

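Total RNA of injured retinas was sequenced by the authors, who used CLC Genomics Workbench at its defaults to trim adaptors and map reads to GRCm39. The values the authors deposited are total counts for each gene, as whole numbers with no normalization. The annotation release, the handling of reads on several genes and the use of strand in counting are not given in the sources used here. Columns were matched to retinas by name, and 0 columns of values were left out. No pair of retinas agreed within sampling noise (lowest chi-square over degrees of freedom 25.5). Without molecular identifiers, the counting error understates the true error.

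All genes were fitted with edgeR 4.0.16 (limma 3.58.1, R 4.3.3), using filterByExpr by group (minimum count 10), TMM, glmQLFit and glmQLFTest with Benjamini-Hochberg adjustment over the 14992 genes tested. Standard errors are the log2 fold change divided by the root of F, and 95% intervals use the moderated degrees of freedom. Permutation tests used log2(CPM + 0.01). The steps were tested on simulated data. Of the symbols, 23488 matched 1 GENCODE vM39 gene, including all 10 members. Levels per kb use the canonical transcript.

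The members and the lists of other chaperones and markers were chosen with earlier results of these data known. Of the other chaperones, those called and the 6 with the smallest p were named, with Hsf1 and Cryab, and the 5 genes closest to Hspa1a in pattern. Hsp90ab1, Cryaa, Egr1, Fosb and the lens markers at 0 were named after their values were seen. Of the marker genes the rule names, 1 is not reported here. Alternatives were other filters, scalings and thresholds, DESeq2 1.42.0, the replicate number as a block, and leaving out each retina.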

Additional observations from a re-analysis of the deposited data

How the results depend on the processing

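With DESeq2 size factors, upper-quartile scaling, other filters, mitochondrially encoded genes left out or the DESeq2 Wald test, 0 members were called, where 1.05% to 2.28% of all genes were. Other thresholds (p of at most 0.05 with 2-fold, or p of at most 0.1 with no limit on fold) also called 0 members. The share of all genes at these thresholds is not given here. Of 131 alternative log2 fold changes of members, 118 kept their sign and 130 kept their side of the threshold. The exception was Hspb1 without Sorbinil replicate 3, at -1.64 (edgeR, adjusted p = 0.00665, over all alternatives 0.00665 to 1).

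Library size alone shifted all genes to a median log2 fold change of -0.11, the members to -0.187 and the other chaperones to -0.118, or -0.077 and -0.007 relative to all genes. The DESeq2 Wald test gave 1 member an unadjusted p under 0.05. Leaving out single retinas moved the count of members called from 0 to 1, with an unadjusted p under 0.05 from 0 to 6, and with an adjusted p under 0.05 from 0 to 2, each highest without Sorbinil replicate 3 (edgeR; Hspb1, and Hsp90aa1 at 0.42, adjusted p = 0.0357, over all alternatives 0.0357 to 1). Those 6, in a setting where 48.7% of all genes had an unadjusted p under 0.05, were Hspb1, Hspb8, Hspa1b, Hspa8, Hsph1 and Hsp90aa1. Sorbinil replicate 1 is then assumed to vary like the DMSO retinas, and 2903 genes were called against 257 with all 5 retinas. The median of the members ran from -0.118 to 0.046 and that of the other chaperones from -0.082 to 0.044. The other chaperones called ran from 0 (without Sorbinil replicate 1) to 3 (without DMSO replicate 3, or without Sorbinil replicate 3).

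Over all genes, calls numbered 408 with no filter, 148 with at least 10 counts in every retina and 164 without DMSO replicate 1. Adjusted p-values under 0.05 numbered 21 with the DESeq2 Wald test, 4 with the replicate block and 5576 without Sorbinil replicate 3. With the replicate number as a block, 0 members were called, where 1.35% of all genes were, and the medians were -0.058 for members and -0.018 for other chaperones. Retinas with the same number deviated with correlations of -0.198 and -0.089. Deviations of the Sorbinil retinas from their own mean are mirror images of each other. These correlations therefore cannot decide whether retinas with the same number share more than that number. The causes of these changes were not tested.

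Hspb1 and Hspb8 rest on 89 to 618 counts per retina, and their intervals leave a 2-fold difference undecided. With 2 retinas against 3, no permutation p can go below 0.1.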

Other observations

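The other chaperone groups were also compared by retina, as the median log2 difference of each list from the DMSO mean. In Sorbinil replicate 1 this median was 0.18 for the TRiC chaperonin and prefoldin genes, 0.24 for the mitochondrial chaperones and proteases and 0.031 for the chaperones of the endoplasmic reticulum. In Sorbinil replicate 3 it was -0.14, -0.135 and -0.19 for the same lists. It was -0.019 and -0.38 in Sorbinil replicates 1 and 3 for the heat shock factor genes, -0.57 and 0.37 for the other small heat shock proteins, -0.45 and 0.024 for the other HSP70, HSP110 and HSP90 genes, 0.024 and -0.008 for the J-domain proteins, and 0.071 and -0.056 for the cochaperones. Each list is a single value per retina, and these differences were not tested.

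Cryaa (αA-crystallin), the lens small heat shock protein, was at 0.17, 0.20 and 27.3 CPM in DMSO retinas and at 0.91 and 16.8 CPM in Sorbinil retinas. The summed level of the 7 lens markers tested (all of the 8 listed but Birc7) was 1.30, 1.63 and 5.60 CPM in DMSO retinas and 1.41 and 5.10 CPM in Sorbinil retinas, high in the same retinas, with Mip, Birc7 and Lenep each at 0 counts in at least 1 retina. The pigment epithelium markers summed to 655, 495 and 691 CPM in DMSO retinas and to 272 and 564 CPM in Sorbinil retinas. Without Rlbp1, which Müller glia also express, the other 7 summed to 105, 93.2 and 246 CPM and to 82.3 and 136.5 CPM. The part of these markers in Cryaa was not tested.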
